A study of Homo sapiens with 9 samples.

Results

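The 37 genes described here encode the machinery that builds the autophagosome, the double-membraned vesicle that encloses cytoplasm and organelles and carries them to the lysosome. They were taken by symbol from a table of 20323 genes, and all 37 symbols were found. ATG9A and WDR45 each stood on 2 rows, and the row with the larger summed count was used (8439.6 against 407.8 and 5779.5 against 29.7 expected counts). A filter on low counts passed 35 of the 37. The other 2 were close to silent, with 7 expected counts over all 9 libraries for ULK2, a kinase paralog of ULK1, and 5 for MAP1LC3A, a member of the ATG8 family.

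RNA came from HKC-8, an established human line derived from kidney tubular epithelium, in 3 groups of 3 libraries. The control group was transfected with the empty vector pcDNA3. The Wnt1 group was transfected with the expression plasmid p-Wnt-1, and the Wnt1_KP6 group received the same plasmid together with KP6, a Klotho-derived peptide. The labels give no time or dose, and no label separates the libraries by batch. KP6 was not given without p-Wnt-1, so its 2 comparisons are with the plasmid alone and with the empty vector. The series is about Wnt/beta-catenin and ATF3 signalling and mitophagy in kidney injury.

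Autophagosome formation starts when the ULK1 kinase complex activates a class III PI3-kinase, which marks the membrane with the lipid PI3P. Effectors that bind PI3P then bring in lipid transfer proteins, which let the membrane grow, and a pair of ubiquitin-like conjugation reactions, which attach ATG8 proteins (LC3 and GABARAP) to it. In tubular cells this pathway is known for clearing damaged mitochondria, and much of its control is exerted on proteins rather than on transcripts, so levels of messenger RNA do not measure autophagic activity.

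Library totals were 21199078 to 27507623 expected counts, and the 37 genes held 0.17 to 0.19% of them. Replicate 1 of every group stood apart from replicates 2 and 3. A chi-square test of counts gave 56 to 147 per degree of freedom for pairs that included replicate 1, and 3.11 to 13.6 for replicates 2 and 3 of a group. The mitochondrial share was 5.18 to 5.72% in the 3 libraries of replicate 1 and 7.01 to 7.97% in the other 6. ATF3, the transcription factor in the series title, was at 30.3, 93.9 and 93.4 CPM (expected counts scaled to library size) in the Wnt1 libraries. It was at 25.4, 668 and 664 CPM in the Wnt1_KP6 libraries, so replicate 1 was the lowest of its group in both. In the control libraries it was at 18.2, 7.84 and 8.78 CPM, where replicate 1 was the highest. WNT1 itself had no count in the 3 control and the 3 Wnt1 libraries, and 1, 2 and 0 counts in the Wnt1_KP6 libraries. Directions for the plasmid therefore rest on the labels. The kidney epithelium markers PAX8, CDH16, KRT8, KRT18 and EPCAM exceeded 1 CPM in every library, and PAX2 and CDH1 did not. Of the proximal tubule markers GGT1, GATM and MIOX exceeded it in every library, and the defining markers LRP2, SLC22A6 and SLC22A8 were at or near 0. Distal nephron, endothelial and immune markers summed to at most 0.955, 0.239 and 0.851 CPM. The 7 fibroblast markers summed to 39.1 CPM in control replicate 1 and to 15.6 to 23.9 CPM in the other libraries, and their part in the results below was not tested.

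Levels between genes were compared by the deposited FPKM, which is scaled to gene length. The median FPKM over 9 libraries was 162 for GABARAP, an ATG8 protein, far above the next genes of the list. WIPI2, a PI3P effector, followed at 48.9, VMP1, a lipid scramblase, at 45.5, GABARAPL1, another ATG8 protein, at 43, ATG3, the conjugating enzyme for ATG8, at 39.3, and MAP1LC3B, the LC3 protein used as the standard autophagosome marker, at 38.7. The ranges of WIPI2, VMP1, GABARAPL1, ATG3 and MAP1LC3B over libraries overlapped, so their order is not fixed by these data. At the low end stood ATG2B, a lipid transfer protein, at 2.92 and ATG4A, a protease that processes ATG8 proteins, at 2. The median over all tested genes was 10.2.

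**Figure D1:**
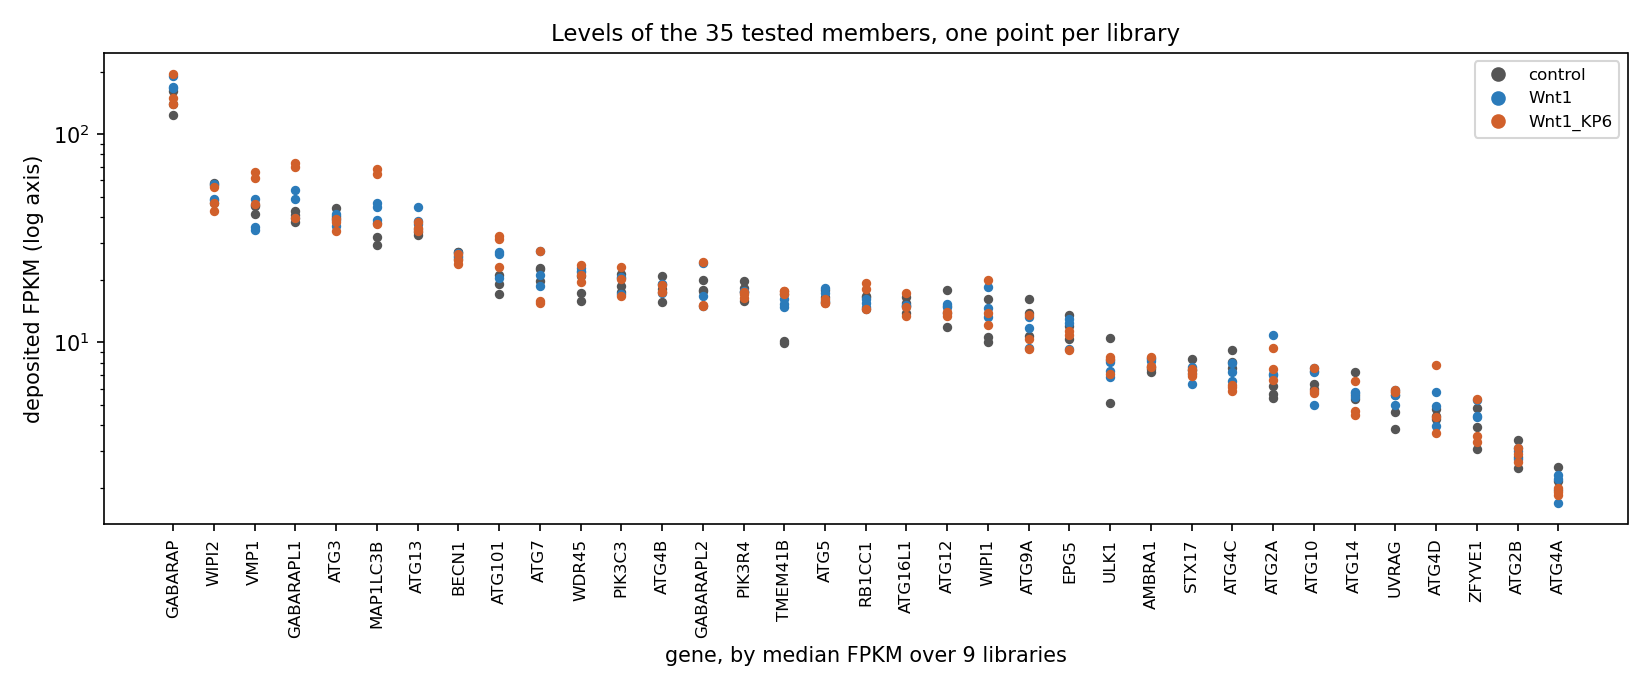
Deposited FPKM (log axis) of the 35 tested genes in each of 9 libraries, ordered by median, with 1 point per library coloured by group. GABARAP stands alone at the top with a median of 162, and ATG4A is the lowest at 2.

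By the median ratio of highest to lowest library, these genes varied about as much as all tested genes. The comparison was not matched for expression level. The bands that follow were counted for the listed genes only. The highest library was under 1.3 times the lowest for 10 of 35 genes, 1.3 to 2 times for 21 and over 2 times for 4, and the median ratio was 1.46 against 1.56 over all tested genes. BECN1 and PIK3C3, the scaffold and the lipid kinase of the PI3-kinase complexes, had a ratio of 1.13 each. The 4 genes over 2 were MAP1LC3B (2.44), TMEM41B (2.26), ULK1 (2.16) and GABARAPL1 (2.02).

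No autophagosome formation gene passed the test in any comparison when all 9 libraries were used. A gene is called here when its p from the quasi-likelihood test of edgeR, adjusted by Benjamini-Hochberg over 13153 genes, is under 0.05. For Wnt1 against control 0 of 35 were called where 0.122% of all genes were, for Wnt1_KP6 against Wnt1 0 of 35 where 0% were, and for Wnt1_KP6 against control 0 of 35 where 0.228% were. At an unadjusted p under 0.05 edgeR counted 6 genes of the list for Wnt1 against control, 5 higher and 1 lower, where 11.2% of all genes passed, 6.01% higher and 5.21% lower. For Wnt1_KP6 against Wnt1 it counted 1, VMP1, which was higher, where 2.76% of all genes passed, 2.12% higher and 0.639% lower. It counted 10 for Wnt1_KP6 against control, 8 higher and 2 lower, where 15.8% of all genes passed, 9.1% higher and 6.68% lower. DESeq2 called 0 (2.3% of all genes), 0 (0.152%) and 3 (5.12%), the 3 being ATG101, ATG2A and MAP1LC3B, all higher with Wnt1_KP6 than in control. Fits with RLE size factors (0.114, 0 and 0.228% of all genes called), without the filter (0.0826, 0 and 0.236%), with the replicate block (0.722, 0 and 1.13%), on the 6 libraries compared (0.0695, 0 and 0%) and with limma on log2(FPKM + 1) (0.114, 0 and 0.0836%) each called 0 of the 35 in every comparison. In bulk RNA fewer cells of a type and less RNA per cell cannot be told apart. The median log2 fold changes of the 35 were 0.04, 0 and 0.06, beside 0, 0 and -0.01 over all genes. All comparisons share libraries with each other, so their counts are not independent.

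The libraries of Wnt1 and control did not overlap for 6 genes, 17.1% of the 35 against 16.5% of all genes. ATG13, AMBRA1, ATG2A, WDR45 and MAP1LC3B lay higher with Wnt1 (8.67% of all genes), and ATG4C lay lower (7.87%). For Wnt1_KP6 against control 9 genes, 25.7% of the 35, did not overlap, against 16.5% of all genes. Higher were ATG13, ATG101, AMBRA1, ATG2A, VMP1, WDR45 and MAP1LC3B, and lower were ATG4C and STX17, beside 8.71% and 7.79% of all genes. The control libraries enter both comparisons. Between Wnt1_KP6 and Wnt1 all 35 overlapped, where 5.8% of all genes did not (2.87% higher, 2.93% lower).

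Because replicate 1 stood apart, the same test was also run on replicates 2 and 3 alone, a setting chosen with earlier results of these data known. It rests on 2 libraries a group, which differed less from each other than from replicate 1. In the chi-square test above, replicates 2 and 3 differed more in control (13.6) than in Wnt1 (3.11) and Wnt1_KP6 (3.34). With these libraries 31.6% of 13041 genes were called for Wnt1 against control, 8.62% for Wnt1_KP6 against Wnt1 and 40.6% for Wnt1_KP6 against control. Of the 35 genes 15 (42.9%) were called for Wnt1 against control, 11 higher and 4 lower, where 16.3% of all genes were called higher and 15.3% lower. For Wnt1_KP6 against Wnt1 4 (11.4%) were called, all higher, where 6.06% of all genes were called higher and 2.56% lower. They were VMP1, GABARAPL1, MAP1LC3B and RB1CC1. For Wnt1_KP6 against control 14 (40%) were called, 12 higher and 2 lower, where 21.1% of all genes were called higher and 19.5% lower. The total is about the share of all genes. VMP1, GABARAPL1 and MAP1LC3B differed in replicate 1 by log2 ratios of at most 0.13 in size in all 3 comparisons. Whether replicate 1 differs from replicates 2 and 3 in its response was not tested.

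Leaving out 1 library at a time gave calls in the list for 2 of the 9 libraries, both of them replicate 1. Without control replicate 1, 2 genes were called for Wnt1 against control (TMEM41B, 0.64, and WDR45, 0.41 on the log2 scale; edgeR adjusted p = 0.04 and 0.0421) where 6.62% of all genes were. Then 3 were called for Wnt1_KP6 against control (UVRAG, 0.51, TMEM41B, 0.81, and WDR45, 0.39; edgeR adjusted p = 0.0267, 0.0158 and 0.0391), against 9.03% of all genes. Without Wnt1_KP6 replicate 1, 3 were called for Wnt1_KP6 against Wnt1 (VMP1, 0.78, GABARAPL1, 0.71, and MAP1LC3B, 0.69; edgeR adjusted p = 0.0301, 0.0422 and 0.0357), against 1.61% of all genes. Then 4 were called for Wnt1_KP6 against control (ATG101, 0.83, VMP1, 0.66, GABARAPL1, 0.93, and MAP1LC3B, 1.11; edgeR adjusted p = 0.0194, 0.0312, 0.00622 and 0.00163), against 5.2% of all genes. All of these were higher in the group named first.

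**Figure D2:**
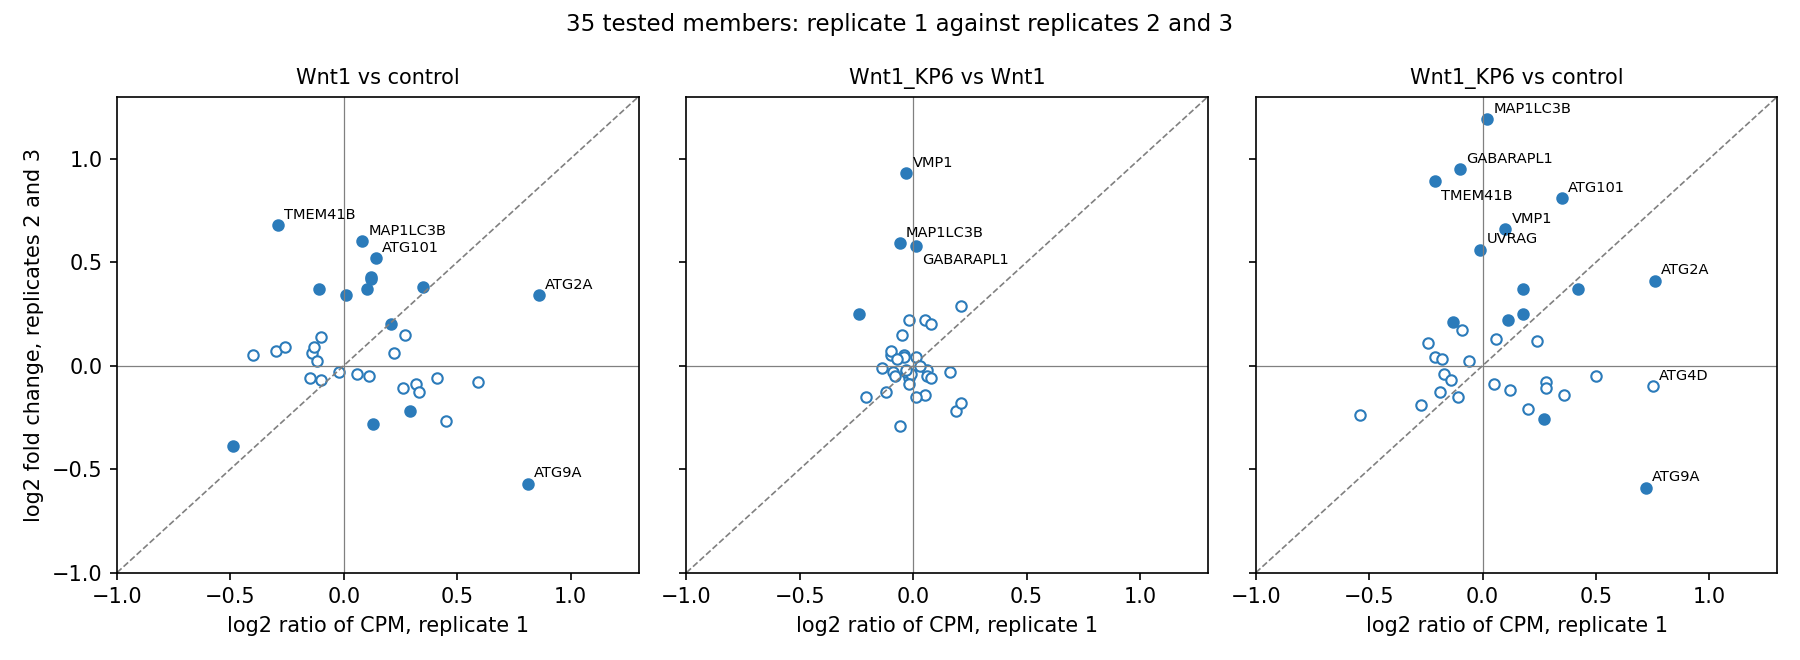
Each point is 1 of the 35 tested genes, with the log2 ratio of CPM in replicate 1 on the x axis and the log2 fold change in replicates 2 and 3 on the y axis, for the 3 comparisons. Filled points passed edgeR's test in replicates 2 and 3, and the dashed line marks equal values. For Wnt1_KP6 against Wnt1 and against control MAP1LC3B, GABARAPL1 and VMP1 lie between 0.58 and 1.19 on the y axis and near 0 on the x axis, and in both comparisons with control ATG9A is above 0 on the x axis and below 0 on the y axis.

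The members of the initiation complex phosphorylate and recruit the next proteins. Its kinase ULK1 (chr12:131894651-131923167 on hg38) was at 25.8, 42.9 and 55.8 CPM in control, 35.3, 39.1 and 42.7 in Wnt1 and 36.6, 48.3 and 47 in Wnt1_KP6. The control libraries alone spanned those of the other groups, and no fit over the 3 comparisons called ULK1. ATG101, which stabilises ATG13 in the complex, was at 24, 22.5 and 27.6 CPM in control, 26.5, 36.2 and 35.4 in Wnt1 and 30.6, 43.9 and 43.7 in Wnt1_KP6. Each Wnt1_KP6 library was above each control library. The log2 fold change of Wnt1_KP6 against control was 0.68 ± 0.17 (SE, n = 3 a group; edgeR adjusted p = 0.128, and 0.0189 with DESeq2), with log2 ratios of 0.35 in replicate 1 and 0.81 in replicates 2 and 3. Against control, Wnt1 alone gave 0.40 ± 0.17 (edgeR adjusted p = 0.429). About 19.2% of the exon bases of ATG101 (chr12:52069246-52077494) lie opposite those of AC025259.1, and the counts are not stated to keep strand.

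ATG13, the regulatory subunit that binds ULK1, was at 85.3 to 93.2 CPM in control, 98.9 to 108 in Wnt1 and 96.3 to 113 in Wnt1_KP6. Both plasmid groups lay above control without overlap, but the difference was small, with log2 fold changes of 0.20 ± 0.09 and 0.23 ± 0.09 (edgeR adjusted p = 0.44 and 0.264). RB1CC1, the large scaffold also called FIP200, was at 83.8 to 91.7 CPM in Wnt1 and at 77.9, 98.7 and 107 CPM in Wnt1_KP6, where replicate 1 was the lowest of the 9 libraries. The initiation complex had, in replicates 2 and 3, 2 of 4 tested genes called higher for Wnt1 against control (ATG13 and ATG101), 1 for Wnt1_KP6 against Wnt1 (RB1CC1) and 3 for Wnt1_KP6 against control, in a setting where 16.3, 6.06 and 21.1% of all genes were called higher. Counts over 4 genes say little beside such shares.

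The class III PI3-kinase complexes make PI3P, and their core subunits PIK3C3 and BECN1 had the lowest ratio of highest to lowest library in the list. PIK3C3, the catalytic subunit, was at 49.2 to 55.5 CPM over all libraries, and BECN1, the scaffold that BCL2 can bind, at 47.3 to 53.4. For Wnt1_KP6 against control the 95% intervals of the log2 fold change were -0.20 to 0.18 for PIK3C3 and -0.22 to 0.13 for BECN1. PIK3R4, the pseudokinase subunit, was at 79.4 to 94.3 CPM, and ATG14, which directs the complex to autophagosome formation, at 22.4 to 32.5. Opposite-strand genes cover 17.1% of the exon bases of BECN1.

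Of the other PI3-kinase partners, AMBRA1, a scaffold that links BECN1 to the ULK1 complex, was at 34.3, 35.6 and 37.5 CPM in control, 41.4, 40 and 40.8 in Wnt1 and 40.5, 40.5 and 38.9 in Wnt1_KP6. The groups did not overlap with control, and the log2 fold change of Wnt1 against control was 0.19 ± 0.08 (edgeR adjusted p = 0.416). UVRAG, which replaces ATG14 in the complex that acts on endosomes and later steps, was at 17.9, 12.8 and 14.2 CPM in control, 18.1, 16.6 and 17.4 in Wnt1 and 17.8, 19.4 and 20.4 in Wnt1_KP6. Control replicate 1 overlapped the other groups, and UVRAG was the only 1 of the 6 called in replicates 2 and 3, at 0.34 ± 0.11 for Wnt1 against control and 0.56 ± 0.10 for Wnt1_KP6 against control (edgeR adjusted p = 0.0264 and 0.000805), where 31.6% and 40.6% of all genes were called.

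Among the proteins that supply lipid to the growing membrane, VMP1, TMEM41B and ATG9A differed between replicate 1 and the other replicates. VMP1, an endoplasmic reticulum scramblase needed for the membrane to form and detach, lies at chr17:59707192-59842255 on hg38, and MIR21 overlaps 1.04% of its exon bases. VMP1 was at 151, 155 and 145 CPM in control, 165, 125 and 123 in Wnt1 and 162, 228 and 246 in Wnt1_KP6. In replicates 2 and 3 the Wnt1 libraries were the lowest of all and the Wnt1_KP6 libraries the highest, whereas the 3 libraries of replicate 1 lay together. For Wnt1_KP6 against Wnt1 the log2 fold change was 0.62 ± 0.17 over all libraries, the smallest p of the list in that comparison (edgeR adjusted p = 1). With replicates 2 and 3 alone VMP1 fell by 0.28 ± 0.07 with Wnt1 and was 0.93 ± 0.07 higher with Wnt1_KP6 than with Wnt1 on the log2 scale (edgeR adjusted p = 0.00629 and 2.07e-07). In replicate 1 these log2 ratios were 0.13 and -0.03.

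TMEM41B, a scramblase of the same family, was at 49.6, 30.6 and 25 CPM in control, 40.7, 46.8 and 42.4 in Wnt1 and 42.9, 46.4 and 56.5 in Wnt1_KP6. Control replicate 1 was above all 3 Wnt1 libraries, while control replicates 2 and 3 were below every library of the other groups. The log2 fold changes in replicates 2 and 3 were 0.68 ± 0.11 for Wnt1 and 0.89 ± 0.11 for Wnt1_KP6 against control (edgeR adjusted p = 0.000533 and 3.64e-05), against log2 ratios of -0.29 and -0.21 in replicate 1.

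ATG2A, which bridges the endoplasmic reticulum and the growing membrane and transfers lipid, had the smallest p of the list for Wnt1 against control. Its level was 32.1, 30.5 and 37.8 CPM in control, 58.1, 43.2 and 43.1 in Wnt1 and 54.3, 48 and 42.8 in Wnt1_KP6. All 6 libraries with the plasmid were above all 3 control libraries. The log2 fold change was 0.53 ± 0.15 against control both for Wnt1 and for Wnt1_KP6 (edgeR adjusted p = 0.248 and 0.15), and between Wnt1_KP6 and Wnt1 it was 0.01 ± 0.15 with a 95% interval of -0.33 to 0.35. The replicate 1 log2 ratios of ATG2A, 0.86 and 0.76, were above those of replicates 2 and 3, 0.34 and 0.41. Its paralog ATG2B was at 32.7 to 42.8 CPM with no fit calling it.

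ATG9A, the membrane protein that seeds autophagosomes on small vesicles, was at 26.6, 41.9 and 50.8 CPM in control, 46.6, 31.7 and 30.9 in Wnt1 and 43.8, 31.2 and 30.4 in Wnt1_KP6. Replicate 1 was the lowest control library and the highest library of both other groups. The log2 ratios of Wnt1 and Wnt1_KP6 against control were 0.81 and 0.72 in replicate 1 and -0.57 ± 0.10 and -0.59 ± 0.10 in replicates 2 and 3 (edgeR adjusted p = 0.000649 and 0.000307). ATG9A shares 38.8% of its exon bases with AC068946.2 on the same strand, so its estimated counts are uncertain.

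**Figure D3:**
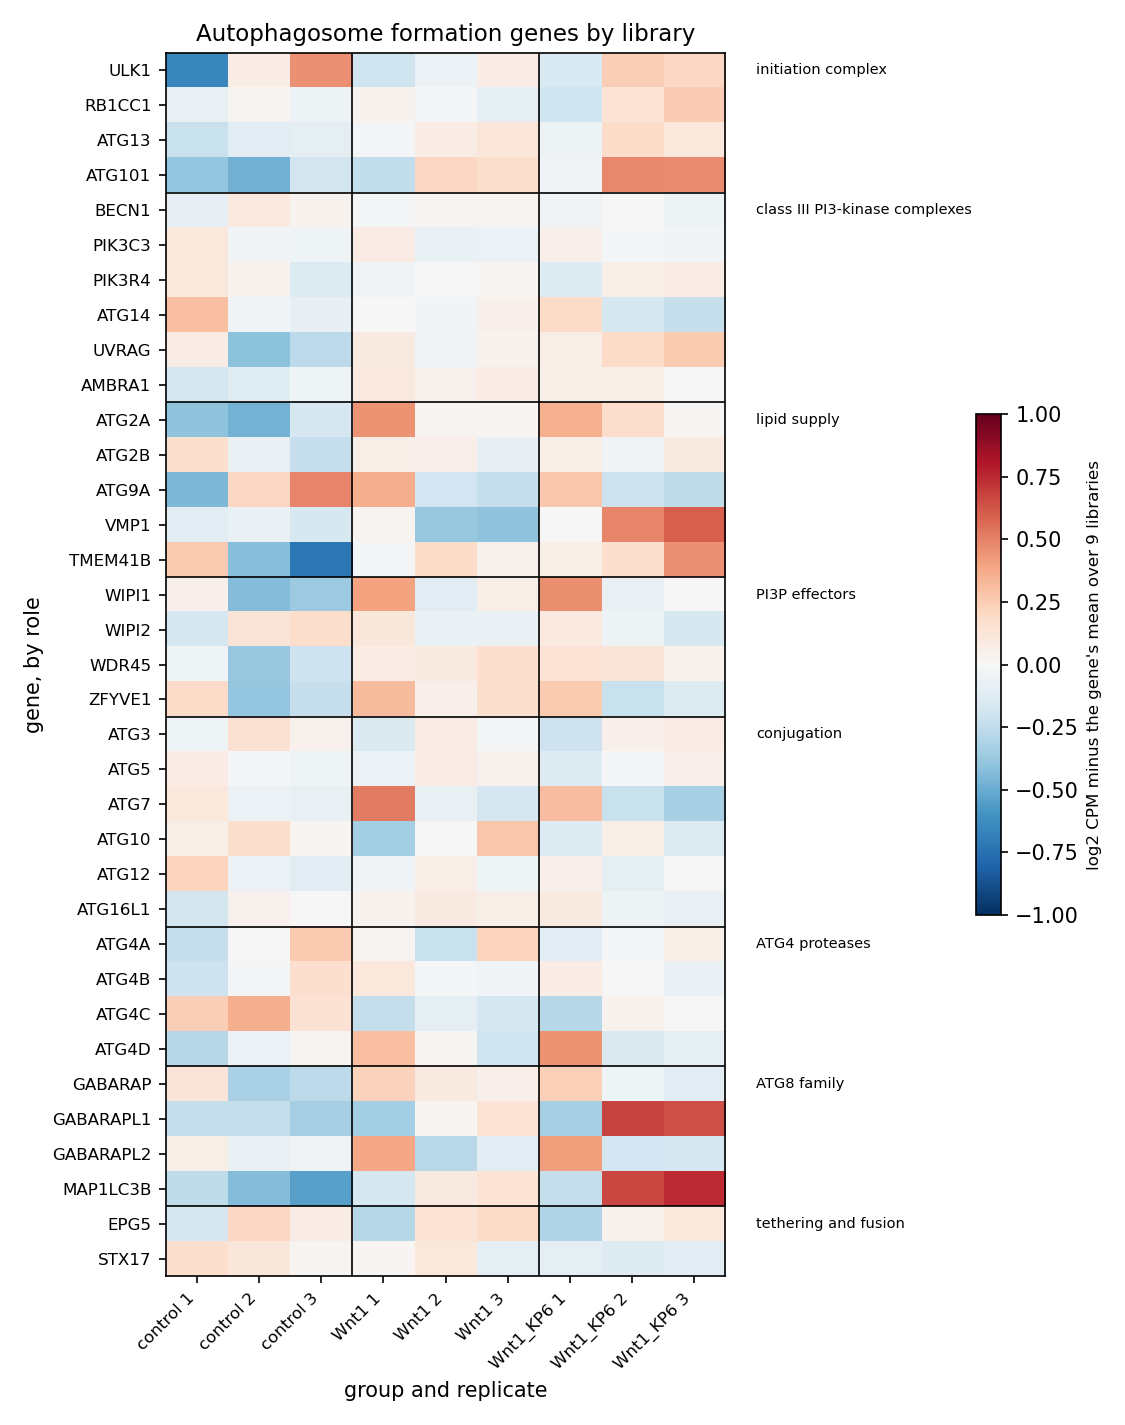
Log2 CPM of the 35 tested genes in each library minus the mean of that gene over 9 libraries, with genes grouped by role and libraries by group and replicate. MAP1LC3B, GABARAPL1 and VMP1 are red in Wnt1_KP6 replicates 2 and 3, at 0.491 to 0.744. The conjugation and PI3-kinase genes are pale in most libraries, with ATG7 in Wnt1 replicate 1 an exception.

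Among the PI3P effectors are proteins that bring lipid transfer proteins or the conjugation machinery to the membrane. WDR45, a WIPI-family protein also called WIPI4 that binds ATG2, was at 24.8, 19.6 and 22.1 CPM in control, 27, 27.3 and 28.8 in Wnt1 and 28.2, 27.9 and 26.2 in Wnt1_KP6. Both plasmid groups were above control without overlap, with log2 fold changes of 0.32 ± 0.11 and 0.31 ± 0.11 (edgeR adjusted p = 0.303 and 0.206). Of its exon bases 13.9% overlap PRAF2 on the same strand. WIPI2, which recruits ATG16L1, was at 95.7 to 122 CPM, and in replicates 2 and 3 it fell by 0.22 ± 0.07 with Wnt1 and by 0.26 ± 0.07 with Wnt1_KP6 against control on the log2 scale (edgeR adjusted p = 0.027 and 0.00801). Its replicate 1 log2 ratios were 0.29 and 0.27. WIPI1, a paralog of WIPI2, was at 18.5 to 26 CPM in control, 23.2 to 33.2 in Wnt1 and 23.8 to 34.7 in Wnt1_KP6, with replicate 1 the highest in each group. Opposite-strand genes cover 28.1% of the exon bases of WIPI1. ZFYVE1, also called DFCP1 and used to mark the sites where autophagosomes form, was at 12.8 to 21 CPM. All 4 effectors were called in replicates 2 and 3 for Wnt1 against control, 3 of them higher, and 3 of 4 for Wnt1_KP6 against control, 2 of them higher, where 31.6% and 40.6% of all genes were called.

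The 6 conjugation genes gave no call in any comparison under any setting run. They work as a chain, in which ATG7 activates the ubiquitin-like proteins, ATG10 and ATG3 pass them on, and ATG12, joined to ATG5 and bound to ATG16L1, attaches ATG8 proteins to the membrane. ATG5 was at 38.7 to 44.7 CPM over the 9 libraries, ATG3 at 53.4 to 68.8, ATG12 at 29 to 36.5, ATG16L1 at 40.5 to 49.1 and ATG10 at 6.85 to 10.5. For ATG5 the 95% interval of the log2 fold change of Wnt1 against control was -0.18 to 0.21. ATG7 ranged from 23.8 to 42.8 CPM, with Wnt1 replicate 1 the highest library. Opposite-strand VGLL4 covers 18.1% of the exon bases of ATG7.

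The ATG4 proteases trim new ATG8 proteins and release them from membranes. ATG4B, the main protease of the family, was at 26.9, 30.6 and 34.9 CPM in control, 33.5, 30.9 and 30.5 in Wnt1 and 32.7, 31 and 29.7 in Wnt1_KP6, so the control libraries spanned the whole range. ATG4C was at 14.6, 15.8 and 13.6 CPM in control, 10.4, 11.5 and 10.8 in Wnt1 and 10, 12.6 and 12.2 in Wnt1_KP6. Every control library was above every other library, and the log2 fold changes of Wnt1 and Wnt1_KP6 against control were -0.42 ± 0.12 and -0.33 ± 0.12 (edgeR adjusted p = 0.263 and 0.239). In replicates 2 and 3 ATG4C passed the test against control for Wnt1 (-0.39 ± 0.12, edgeR adjusted p = 0.0214) and not for Wnt1_KP6 (-0.24 ± 0.12, adjusted p = 0.11). Between Wnt1_KP6 and Wnt1 the same replicates gave 0.15 ± 0.12 (edgeR adjusted p = 0.585), so that difference was not called.

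ATG4A and ATG4D were the low members of the protease family. ATG4A was at 3.73, 4.36 and 5.27 CPM in control, 4.47, 3.75 and 5.13 in Wnt1 and 4.06, 4.34 and 4.56 in Wnt1_KP6, from 79 expected counts in Wnt1 replicate 2 to 137 in control replicate 3. ATG4D was at 6.32, 7.41 and 7.86 CPM in control, 9.52, 7.81 and 6.73 in Wnt1 and 10.6, 6.97 and 7.24 in Wnt1_KP6, where replicate 1 was the highest of both plasmid groups. KRI1 lies opposite 15% of the exon bases of ATG4D.

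ATG8 proteins coat the membrane and hold cargo receptors. MAP1LC3B lies at chr16:87383995-87404779 and GABARAPL1 at chr12:10212458-10223130 on hg38. With VMP1 they were the 3 genes of the list that were called higher for Wnt1_KP6 against Wnt1 when Wnt1_KP6 replicate 1 was left out. ATF3 and its relatives bind cyclic-AMP-response-type elements whose core is TGACG, so the 250 bases before the RefSeq starts of these 3 genes (build GRCh38.p14) were searched for this core on both strands. The 30 bases around each match are printed 5′ to 3′ on the plus strand, to show where the core lies in each. The core (CGTCA on the other strand) or the full palindrome TGACGTCA is in capitals.
MAP1LC3B, chr16:87392216-87392245: ttccgccacgccCGTCAtggcggcggcccc
MAP1LC3B, chr16:87392259-87392288: cccgcccctcggTGACGcgtcgcgagtcac
GABARAPL1, chr12:10212836-10212865: ggctcgcggggTGACGTCAcagcccgacgc
VMP1, chr17:59707624-59707653: cagagggaccggaccggaagTGACGtgagc

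The matches begin 108 and 65 bases before the start in MAP1LC3B, 30 in GABARAPL1 and 10 in VMP1. Of the 36 listed genes with a RefSeq entry 14 (38.9%) hold TGACG in these 250 bases, against 21.2% of 35116 promoters. The full TGACGTCA, which contains the core, was in GABARAPL1 alone (2.78% of the 36 against 1.65% of all). The 14 include BECN1, ATG3 and PIK3R4, whose highest library was under 1.3 times the lowest. ATG101 and RB1CC1 are not among the 14. ATG101 was called higher with the 3 genes printed for Wnt1_KP6 against control when Wnt1_KP6 replicate 1 was left out. RB1CC1 was called higher with them for Wnt1_KP6 against Wnt1 in replicates 2 and 3. Median GC content was 62.2% in the listed promoters and 58% in all. CACGTG was in ATG14 and ATG3 (5.56% against 6.34%), TCACGTGA, a TFEB-type element that contains CACGTG, in none (0.854% of all), TGANTCA in WDR45 and ZFYVE1 (5.56% against 6.57%), TGATGNAA in none (3.14% of all) and TGACNNNGC in ATG101 and MAP1LC3B (5.56% against 10.9%). The windows printed lie within the GENCODE spans of the 3 genes given here, whose first base is upstream of the RefSeq start. These motifs were chosen after the values were seen, and a match is a run of letters, not a bound site. The 3 promoters printed were picked by their calls, so their matches are no test of binding by ATF3.

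MAP1LC3B was at 76.4, 67.2 and 62.6 CPM in control, 80.6, 96.7 and 99.9 in Wnt1 and 77.3, 145 and 152 in Wnt1_KP6. The group means were 68.7 ± 7.03, 92.4 ± 10.3 and 125 ± 41.3 CPM (SD, n = 3). The libraries of Wnt1 and of Wnt1_KP6 were all above those of control, narrowly so in replicate 1, and Wnt1_KP6 replicates 2 and 3 were far above the rest. Over all libraries the log2 fold change was 0.43 ± 0.23 for Wnt1 against control, 0.43 ± 0.23 for Wnt1_KP6 against Wnt1 and 0.86 ± 0.23 for Wnt1_KP6 against control (edgeR adjusted p = 0.532, 1 and 0.137, and 0.0131 with DESeq2 for the last). In replicates 2 and 3 the same differences were 0.60, 0.59 and 1.19, each ± 0.07 (edgeR adjusted p = 2.52e-05, 4.5e-05 and 1.22e-08). In replicate 1 they were 0.08, -0.06 and 0.02. Only 4.82% of the 50-base words of MAP1LC3B recur in other genes, chiefly MAP1LC3B2, which was at 0 to 0.284 CPM.

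GABARAPL1 was at 77.5, 77 and 72 CPM in control, 71.9, 92.2 and 99.8 in Wnt1 and 72.3, 145 and 142 in Wnt1_KP6. Replicate 1 of Wnt1 and of Wnt1_KP6 lay within or at the edge of the control range, and the other 4 libraries of these groups above it. The log2 fold changes over all libraries were 0.22 ± 0.24, 0.45 ± 0.24 and 0.67 ± 0.24 in the same order of comparisons (edgeR adjusted p = 0.804, 1 and 0.227). In replicates 2 and 3 they were 0.37, 0.58 and 0.95, each ± 0.07 (edgeR adjusted p = 0.00168, 6.85e-05 and 1.74e-07), and in replicate 1 -0.11, 0.01 and -0.10.

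GABARAP, the most abundant member, was at 129, 94.4 and 98.7 CPM in control, 139, 126 and 123 in Wnt1 and 139.9, 115 and 109.7 in Wnt1_KP6. Replicate 1 was the highest in each group. The log2 fold change of Wnt1 against control was 0.27 ± 0.14 (edgeR adjusted p = 0.527), and of Wnt1_KP6 against Wnt1 -0.09 ± 0.14 (adjusted p = 1). Same-strand AC120057.2 overlaps 30.5% of the exon bases of GABARAP and opposite-strand AC120057.3 overlaps 25.2%, which leaves its estimated counts uncertain. GABARAPL2 was at 18, 16.5 and 16.9 CPM in control, 22.7, 14.3 and 16.1 in Wnt1 and 23.2, 15.1 and 15.3 in Wnt1_KP6. Its 3 highest libraries were those of replicate 1 in Wnt1_KP6, Wnt1 and control, and no fit called it.

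MAP1LC3A was at 0.0352, 0 and 0.116 CPM in control and 0.0355, 0 and 0 in Wnt1, with no count in Wnt1_KP6, where a count of 0 allows up to 0.119, 0.13 and 0.134 CPM (3 counts, counting error only). These levels are at the floor of detection, and no fold change is given.

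**Figure D4:**
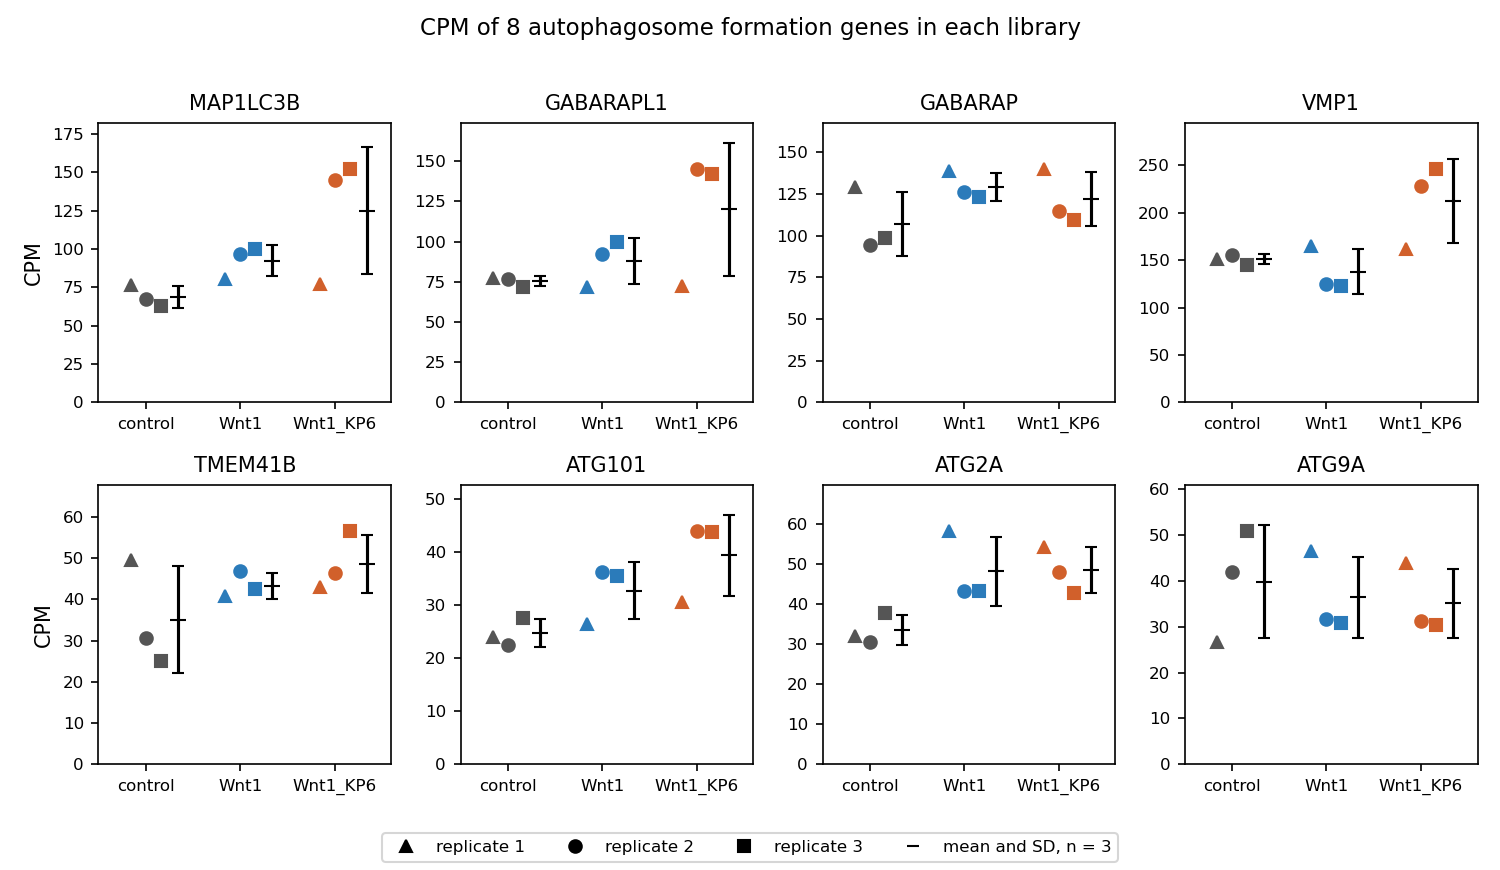
CPM of 8 genes in each library, with replicates 1, 2 and 3 as triangle, circle and square and the mean with SD (n = 3) beside them. In MAP1LC3B and GABARAPL1 the Wnt1_KP6 triangle lies near control, at 77.3 and 72.3 CPM, while the circle and square lie at 142 to 152 CPM.

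The makeup of the ATG8 pool differed between libraries. Summed FPKM of the 5 genes was 262, 215 and 226 in control, 292, 277 and 284 in Wnt1 and 295, 301 and 293 in Wnt1_KP6, so all 6 libraries with the plasmid were above control. The part held by GABARAP was 61.8, 57.8 and 62.2% in control, 65, 60.7 and 58.6% in Wnt1 and 65.8, 49.5 and 47.8% in Wnt1_KP6. The part of MAP1LC3B was 13.1 to 14.9% in control, 13.2 to 16.4% in Wnt1 and 12.5, 21.4 and 23.2% in Wnt1_KP6, and that of GABARAPL1 was 13.4, 24.2 and 23.8% in Wnt1_KP6. In Wnt1_KP6 replicates 2 and 3 the summed level was thus close to that of replicate 1, with more of it from MAP1LC3B and GABARAPL1. FPKM were scaled by the authors within each library, and these shares were not tested between groups.

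**Figure D5:**
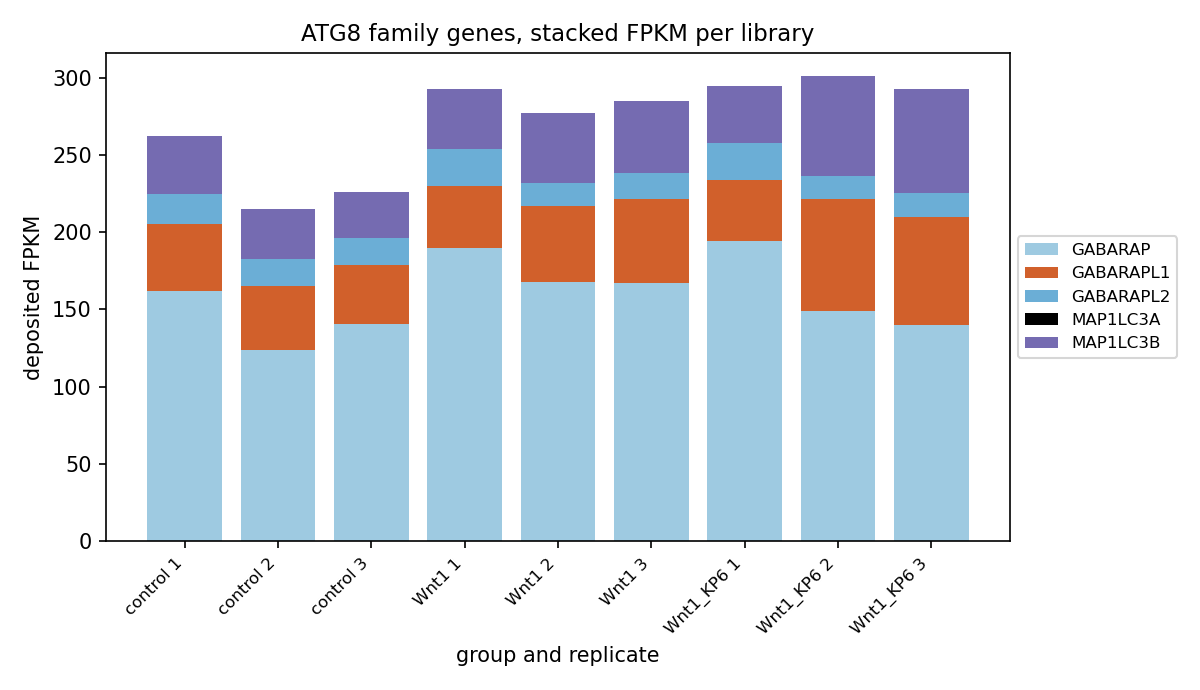
Stacked deposited FPKM of the 5 ATG8 family genes in each library. The bars reach 215 to 262 in control and 277 to 301 in the other groups, and the GABARAPL1 and MAP1LC3B segments are tallest in Wnt1_KP6 replicates 2 and 3. MAP1LC3A is too low to be seen.

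Of the pair that acts after closure, STX17, the SNARE protein that fuses autophagosomes with lysosomes, was at 47.1, 45.3 and 42.6 CPM in control, 42.5, 45.1 and 39.1 in Wnt1 and 39.2, 38.3 and 38.8 in Wnt1_KP6. The Wnt1_KP6 libraries were below control, with a log2 fold change of -0.22 ± 0.09 (edgeR adjusted p = 0.271). EPG5, a tether for the same fusion, was at 96.9 to 138 CPM with replicate 1 the lowest in each group, and no fit called it.

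Genes around the pathway were taken from 3 lists. Of 32 tested upstream regulators (mTOR, AMPK and the TFEB family among them) edgeR called 0 in every comparison, of 13 cargo receptors 0, 0 and 1, and of 30 other formation and fusion genes 0. At an unadjusted p under 0.05 the counts were 3, 1 and 3 for the regulators, 2, 0 and 3 for the receptors and 7, 0 and 5 for the others, in the order Wnt1 against control, Wnt1_KP6 against Wnt1 and Wnt1_KP6 against control. Over all genes 11.2, 2.76 and 15.8% passed, and the regulators were at 9.38, 3.12 and 9.38%. The receptors and the others were above the share of all genes in both comparisons with control. Those shares rest on 13 and 30 genes, and the difference from all genes was not tested. DESeq2 called 0, 0 and 1 regulators, 2, 0 and 1 receptors and 2, 0 and 3 of the others, beside 2.3, 0.152 and 5.12% of all genes. The gene called by edgeR was SQSTM1, the receptor p62 that binds ubiquitin and LC3, at 1107, 1062 and 1173 CPM in control, 2018, 2709 and 2669 in Wnt1 and 1893, 2979 and 2751 in Wnt1_KP6. All 6 libraries with the plasmid were above control, replicate 1 included. For Wnt1_KP6 against control its log2 fold change was 1.19 ± 0.18 (edgeR adjusted p = 0.0468), and for Wnt1 against control 1.15 ± 0.18 (adjusted p = 0.0689; with the replicate block it was 0.015). With DESeq2 the adjusted p was 2.57e-07 and 1.42e-06. The edgeR call for Wnt1_KP6 against control was lost when any 1 library of replicates 2 and 3 was left out, with the log2 fold change at 1.05 to 1.23. Its edgeR adjusted p was then 0.296 and 0.153 for replicates 2 and 3 of control, 0.109 and 0.114 for those of Wnt1, and 0.264 and 0.218 for those of Wnt1_KP6. It was 0.146 with the 6 libraries compared and 0.0556 with limma on log2(FPKM + 1).

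Among the upstream regulators the smallest p were those of TFE3, a TFEB relative, SESN2, a stress sensor upstream of mTOR, and MLST8, an mTOR subunit, for Wnt1 against control (log2 fold changes 0.46, 0.73 and 0.25; edgeR adjusted p = 0.243, 0.416 and 0.426). SESN2 turned direction with the replicate, at a log2 ratio of -0.24 in replicate 1 and 1.36 in replicates 2 and 3, and at -0.17 and 1.32 for Wnt1_KP6 against control. For Wnt1_KP6 they were led by TP53INP2, an autophagy cofactor that binds ATG8 proteins and VMP1, at 17.7, 9.93 and 11 CPM in control, 20.6, 15.6 and 19 in Wnt1 and 21.3, 42 and 45.7 in Wnt1_KP6. Replicates 2 and 3 of Wnt1_KP6 lay above all other libraries, and replicate 1 lay beside Wnt1 replicate 1. Its log2 fold change was 0.98 ± 0.31 against Wnt1 and 1.49 ± 0.31 against control (edgeR adjusted p = 1 and 0.0822), with log2 ratios of 0.05 and 0.26 in replicate 1 and 1.34 and 2.06 in replicates 2 and 3. RHEB, the activator of mTOR, and PRKAB1, an AMPK subunit, followed against Wnt1 (0.15 and -0.14), and TFE3 and SESN2 against control (0.44 and 0.73; adjusted p = 0.158 and 0.295).

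Among the receptors CCPG1, which serves the endoplasmic reticulum, had log2 fold changes of -0.43 and -0.33 for Wnt1 and Wnt1_KP6 against control (edgeR adjusted p = 0.209 and 0.21), and TOLLIP, a ubiquitin-binding adaptor, 0.26 for Wnt1 (adjusted p = 0.462). RETREG1, another receptor for the endoplasmic reticulum, had 0.67 against Wnt1 and 0.72 against control with Wnt1_KP6 (adjusted p = 1 and 0.298). Its log2 ratios were -0.27 and -0.44 in replicate 1 and 1.01 and 1.2 in replicates 2 and 3, so its direction turned with the replicate. TEX264, which serves the same organelle, had -0.15 against Wnt1. Among the other genes PLEKHM1, an adaptor for fusion with lysosomes, was at 32.4 to 43.3 CPM in control, 56.4 to 88.2 in Wnt1 and 53.7 to 80.1 in Wnt1_KP6, without overlap with control. Its log2 fold changes were 0.82 ± 0.21 and 0.72 ± 0.21 (edgeR adjusted p = 0.197 and 0.153, and 0.037 and 0.047 with the replicate block). RAB7A, the GTPase of late endosomes, had 0.31 and 0.35 (adjusted p = 0.24 and 0.119), and TBC1D14, a negative regulator of autophagosome formation, -0.27 and -0.32 (adjusted p = 0.272 and 0.127). TBK1, a kinase for receptors, VPS16, a tether subunit, and ATG9B, the paralog of ATG9A, led that list for Wnt1_KP6 against Wnt1 with 0.20, -0.09 and -0.44 (adjusted p = 1 each).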

How the data were processed

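Messenger RNA was selected on oligo(dT) beads and read on an Illumina NovaSeq with a kit not stated to keep strand, per the labels' protocols. The submitters' processing notes name RSEM, HISAT2, fastp 0.18.0, StringTie 1.3.1, Bowtie2 2.2.8 and hg38, with no role for each and no annotation release. The authors deposited an expected count, an estimated count that need not be whole (87.6% were), and an FPKM value, scaled to gene length and library size, per gene in every library, per the file headers. An estimated count divides reads among genes with common sequence, so overlapping genes and paralogs are uncertain.

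Expected counts were rounded and filtered with filterByExpr (minimum count 10, minimum total 15). Group means were fitted to all 9 libraries with edgeR 4.0.16 in R 4.3.3 (TMM factors, robust quasi-likelihood test, two-sided, no block), with Benjamini-Hochberg adjustment over 13153 genes and a threshold of 0.05. CPM are expected counts scaled by total and TMM factor. Alternatives were RLE factors, DESeq2 1.42.0, no filter, a replicate block, the 6 libraries compared, replicates 2 and 3, leaving out each library, and limma 3.58.1 on log2(FPKM + 1). Scripts were tested on simulated data. Each gene was matched to GENCODE 29 for coordinates and overlaps, and 36 of the 37 had a promoter entry in RefSeq.

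The genes, lists and tests were chosen with earlier results of these data known. Values per library are given for the 5 genes of smallest p in each comparison and for the ATG4 and ATG8 families. ULK1, UVRAG, TMEM41B and ATG9A were added after their values were seen. Of the 3 lists of surrounding genes, called genes and the 3 of smallest p in each comparison are named. Deviations of libraries from the means of their groups had correlations across genes of 0.11 to 0.67 in 9 pairs that share a number. In 18 differently numbered pairs they were -0.55 to 0.40. For pairs of replicates 2 and 3 they were 0.11 to 0.41 for the same number and 0.15 to 0.40 for different numbers. The group means include replicate 1, which stood apart from both, so these values cannot decide whether replicates 2 and 3 are paired. The fit with the replicate block takes numbers from the titles as pairing the samples, which these values cannot show for replicates 2 and 3. No other fit uses that pairing. Nothing in the labels says whether replicates were grown separately, so each p reflects the spread among these libraries only, which could be technical. Some cell type markers are not reported here.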

Additional observations from a re-analysis of the deposited data

How the results depend on the processing

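The count of 0 called genes with all 9 libraries was also 0 in each comparison with RLE factors, no filter, the 6 libraries compared, limma on log2(FPKM + 1) and the replicate block, so the pairing changed no call of a listed gene. DESeq2 called 3 for Wnt1_KP6 against control. Replicates 2 and 3 alone gave 15 for Wnt1 against control, 4 for Wnt1_KP6 against Wnt1 and 14 for Wnt1_KP6 against control. Leaving out each library in turn gave 0 to 2, 0 to 3 and 0 to 4, with the calls named above coming from control replicate 1 and Wnt1_KP6 replicate 1. The cause was not tested. Of 1680 values of single genes compared with the fit over all libraries, 139 in 27 genes changed sign while called in neither fit, the largest at 0.20, and no called value changed sign. Depth limits ULK2 and MAP1LC3A, where 3 counts correspond to 0.105 to 0.142 CPM.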
